A study of Danio rerio with 4 samples.

Results

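The genes described here encode the machinery that brings proteins into the endoplasmic reticulum (ER) and the coats and cargo adaptors of the vesicles that carry proteins between ER and Golgi. They were chosen by name: every protein-coding gene whose symbol begins with sec and a number, ssr1 to ssr4, srp and a number, spcs, tmed and a number or sar1, or that names a COPI subunit (copa, copb, cope, copg, copz). The rule found 59 genes among the 42298 in the files, of which 26381 were protein coding. Of these 59, 19 were translocation genes, 32 were vesicle transport genes and 8 were other genes caught by the name rule. RNA-seq reads were counted in mCherry-positive cells that the study sorted as its β-cell fraction from dissociated whole zebrafish larvae at 5 days post-fertilization. There were 2 wild-type libraries and 2 libraries labelled alms1-/-, homozygous mutants of the ortholog of a human centrosome and cilium gene. Both groups carried Tg(ins:mCherry), in which the insulin promoter drives the red reporter. The libraries are described as duplicates without a word on separate sorts or clutches, so the p-values reflect the spread among these samples alone, and that spread may be technical. The libraries are called wild type 1 and 2 and mutant 1 and 2 below.

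A protein meant for secretion or for a membrane is recognised as it leaves the ribosome by the signal recognition particle (SRP), handed to the Sec61 channel with its helpers Sec62 and Sec63 and the translocon-associated protein (TRAP) complex, and trimmed by signal peptidase. COPII coats, built on the small GTPase Sar1 from Sec23, Sec24, Sec13 and Sec31, bud vesicles from the ER, COPI coats return material from the Golgi, and p24 proteins (tmed genes) sort cargo in both directions. Cells that secrete much, such as insulin-producing cells, enzyme-producing acinar cells and cells that lay down collagen, rely on this machinery, and zebrafish that lack sec23a or sec24d fail to export cartilage collagen.

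The libraries held 42761199 to 50467517 reads that entered the values, and read numbers limit little here: the 59 genes took 156836 and 151361 reads in wild type against 68234 and 77839 in the mutants. Intervals from such counts cover counting error only. The label β-cell was checked against 13 β-cell markers, which took 0.0111% and 0.00829% of reads in wild type against 0.0199% and 0.0224% in the mutants, none of them at 0, with ins itself at 20 and 61 reads in wild type against 534 and 447 in the mutants. Skin markers took far more, 4.69% and 3.41% in wild type against 0.598% and 0.618% in the mutants, so the libraries are called by their sort and not by a cell type. The targeted gene alms1 stood at 22.8 and 17.4 CPM (read counts scaled to a common library total) in wild type against 10.4 and 23.1 in the mutants, which overlap. The mutant allele is not given in the sources used here, so reads of alms1 do not check the labels. In bulk samples fewer cells of a type and less RNA per cell cannot be told apart.

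Most of the 59 genes were lower in the alms1 mutants. In the quasi-likelihood test of edgeR, adjusted by Benjamini-Hochberg over all genes at 0.05, 41 were lower, 1 was higher and 17 were not called, where 24.3% of the 28079 genes tested were called lower and 19.2% higher (43.5% either way). The share called lower was 69.5% of the 59 genes. Their median log2 fold change, mutant over wild type, was −1.25, beside 0.03 over all genes tested. All 59 passed the filter on low counts, sar1aa only through its wild-type reads. Among translocation genes 16 of 19 were lower and 0 higher, with a median of −1.47. Among vesicle transport genes 24 of 32 were lower and 1 higher, with a median of −1.30. Together the 59 genes took 0.311% and 0.317% of all reads in wild type against 0.160% and 0.159% in the mutants.

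Levels in each library are given below as normalised CPM, that is, CPM after TMM scaling of the library totals. On this scale both mutant libraries lay below both wild-type libraries for 50 of the 59 genes and above them for 4, and they overlapped for 5. Over all genes tested, 37.8% lay below and 39.1% above in this way. Other scales gave other counts: by library totals alone 41 genes lay below, 10 above and 8 overlapped, beside 26.0% below and 51.4% above over all genes, and on the deposited TPM 25 lay below, 14 above and 20 overlapped, beside 14.1% and 58.0%. Summed over the 19 translocation genes, normalised CPM was 907 and 1467 in wild type against 448 and 350 in the mutants. The vesicle transport genes summed to 2294 and 2541 in wild type and to 793 and 787 in the mutants. On normalised CPM wild type 2 was above wild type 1 for 48 of the 59 genes and for 18 of the 19 translocation genes. By library totals alone it was above for 30 of the 59 and 15 of the 19. The share over all genes was not counted.

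**Figure D1:**
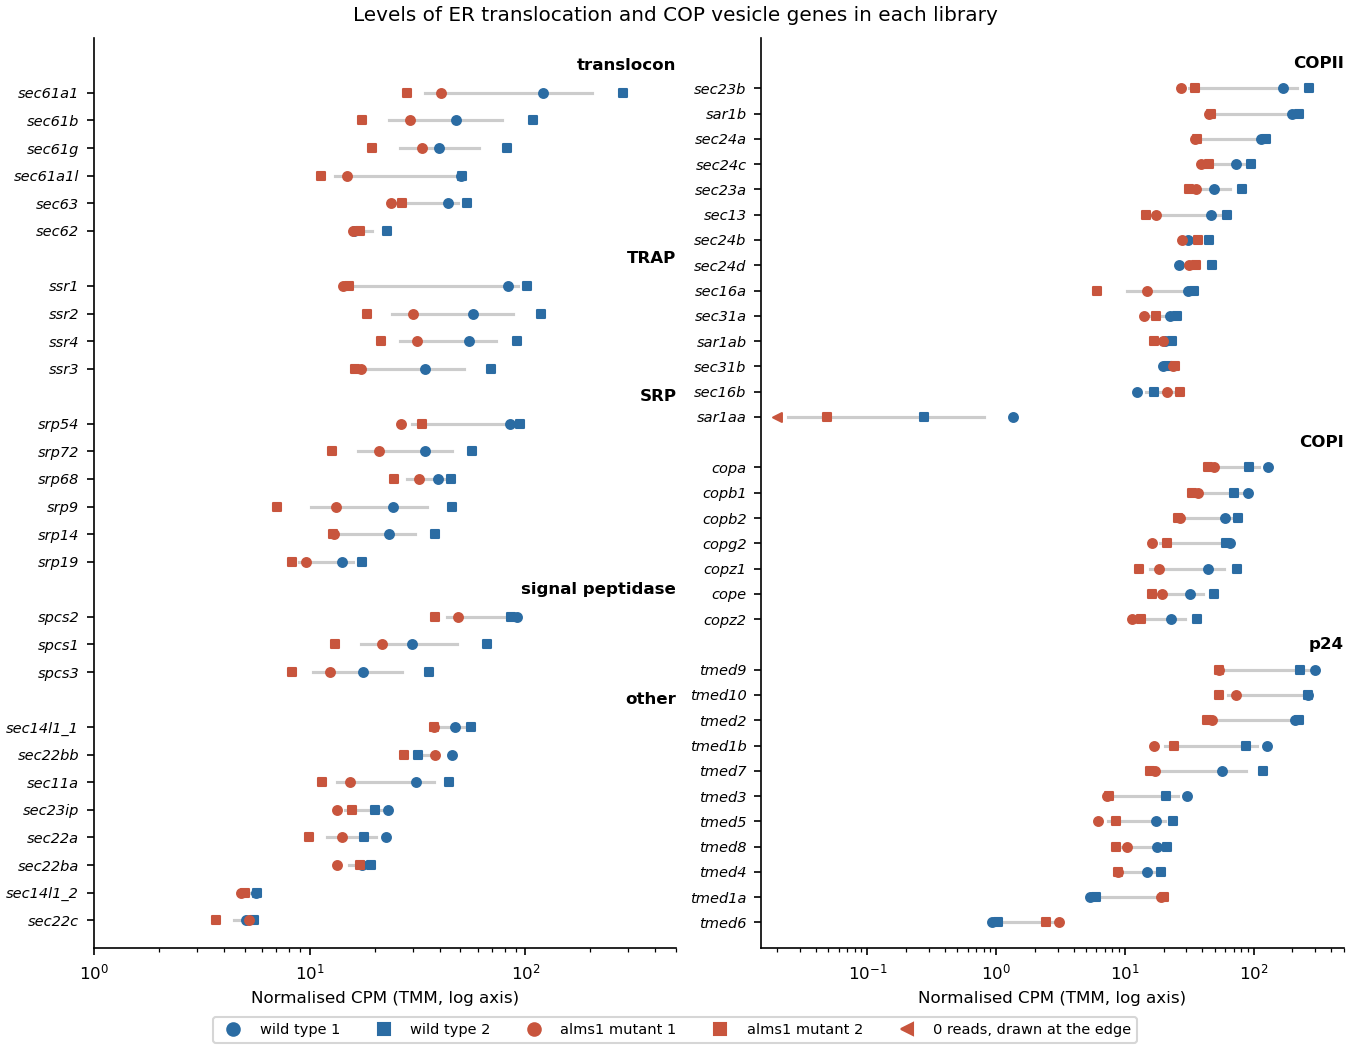
Normalised CPM (TMM, log axis) of each of the 59 genes in each library, grouped by role; blue marks are wild type 1 (circle) and 2 (square), red marks mutant 1 (circle) and 2 (square), grey bars join the group means, and the triangle marks a library with 0 reads. For 50 genes both red marks lie to the left of both blue marks, and for tmed1a, tmed6, sec16b and sec31b they lie to the right.

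The translocon genes showed the largest shift in sec61a1, which encodes the channel-forming α subunit of the Sec61 complex. sec61a1, on the minus strand of chromosome 6 from 40067674 to 40074361 of GRCz10, had a normalised CPM of 120 and 285 in wild type against 40.4 and 28.2 in the mutants. It fell by 2.56 ± 0.41 (SE) on the log2 scale (adjusted p = 0.00223). The lower wild-type library was still well above both mutants, though the wild-type pair was spread more widely than the mutant pair. Its paralogue sec61a1l had 50.5 and 51.1 in wild type against 14.9 and 11.3 in the mutants, and fell by 1.96 ± 0.27 (adjusted p = 0.00128). sec61b, which encodes the small β subunit, had 47.8 and 109 in wild type against 29.1 and 17.5 in the mutants, and fell by 1.75 ± 0.41 (adjusted p = 0.0101). The γ subunit gene sec61g had 39.9 and 81.8 in wild type against 33.1 and 19.5 in the mutants, so that mutant 1 came close to wild type 1. sec61g fell by 1.21 ± 0.39 (adjusted p = 0.0335), and 21.2% of its reads were uniquely mapped. On uniquely mapped reads, 394 and 495 in wild type against 460 and 266 in the mutants, sec61g was not called. sec63, which encodes a J-domain partner of the channel, fell by 0.94 ± 0.25 (adjusted p = 0.0162). Its companion sec62 was not called, with a log2 fold change of −0.24 ± 0.30 (adjusted p = 0.536) and mutant values of 15.9 and 17.1 against 16.04 and 22.9 in wild type. In all, 5 of the 6 translocon genes were lower, with a median of −1.48.

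All 4 genes of the TRAP complex, which binds the channel on the lumenal side and helps chains with weak signal sequences, were lower, with a median of −1.74. ssr1, for the α subunit, had 82.8 and 102 in wild type against 14.3 and 15.3 in the mutants, and fell by 2.64 ± 0.24 (adjusted p = 0.000506), the smallest adjusted p among the 59 genes. None of the reads of ssr1, on chromosome 24 from 42110455 to 42120840, was uniquely mapped, so reads of a near-identical copy cannot be told from its own. ssr2 had 56.9 and 118 in wild type against 30.0 and 18.4 in the mutants, a log2 fold change of −1.85 ± 0.38 (adjusted p = 0.00619). In ssr2, as in the next pair of subunit genes, wild type 2 was the highest library and the groups did not overlap. ssr3 had 34.3 and 69.1 in wild type against 17.3 and 16.3 in the mutants, and fell by 1.63 ± 0.35 (adjusted p = 0.00687). ssr4 had 55.0 and 91.4 in wild type against 31.4 and 21.4 in the mutants, and fell by 1.47 ± 0.32 (adjusted p = 0.00728). Per length, ssr4 was the highest of the 4, at 87.8 ± 3.11 TPM in wild type (SD, n = 2) and 63.8 ± 1.67 in the mutants.

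Of 6 SRP protein genes, 4 were lower, with a median of −1.35. srp54, whose product binds signal sequences and the SRP receptor, had 84.7 and 94.4 in wild type against 26.4 and 33.1 in the mutants. It fell by 1.59 ± 0.24 (adjusted p = 0.00175). srp9, which with srp14 forms the domain that slows elongation, had 24.3 and 45.7 in wild type against 13.2 and 7.04 in the mutants, a log2 fold change of −1.79 ± 0.41 (adjusted p = 0.00939). srp72, part of the RNA-bound core, had 34.1 and 56.8 in wild type against 20.9 and 12.7 in the mutants, and fell by 1.44 ± 0.35 (adjusted p = 0.0117). For each of these 3 genes the groups did not overlap on this scale, but on the deposited TPM they overlapped for srp54. In srp9 and srp72 the wild-type libraries were further apart than wild type 1 was from mutant 1. srp14 itself fell by 1.25 ± 0.31 (adjusted p = 0.0132). srp68, the partner of srp72, and srp19 were not called, with log2 fold changes of −0.58 ± 0.26 (adjusted p = 0.0961) and −0.82 ± 0.33 (adjusted p = 0.071).

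The 3 signal peptidase subunit genes were lower, with a median of −1.36. spcs2 had 91.7 and 85.5 in wild type against 48.7 and 38.1 in the mutants, and fell by 1.03 ± 0.23 (adjusted p = 0.00872). spcs1 had 30.0 and 66.2 in wild type against 21.6 and 13.0 in the mutants, and fell by 1.47 ± 0.41 (adjusted p = 0.0199). spcs3 had 17.6 and 35.9 in wild type against 12.5 and 8.29 in the mutants, and fell by 1.36 ± 0.40 (adjusted p = 0.0244). In spcs1 and spcs3 the wild-type libraries were further apart than wild type 1 was from mutant 1. The catalytic subunit gene sec11a, counted among the other genes because of its name, had 31.1 and 44.1 in wild type against 15.5 and 11.4 in the mutants and fell by 1.48 ± 0.30 (adjusted p = 0.00575).

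The translocation calls depended on single libraries. Without mutant 2, 6 of the 19 genes were called lower (sec61a1, sec61a1l, ssr1, ssr2, ssr3 and srp54), beside 14.0% of all genes. Adjusted p then was 0.0663 for sec61b, 0.188 for sec61g, 0.0646 for ssr4, 0.0587 for srp9, 0.0862 for srp72, 0.0808 for sec63, 0.0707 for srp14, 0.115 for spcs1, 0.116 for spcs2, 0.131 for spcs3, and 0.0536 for sec11a of the other genes. Without wild type 2, 12 of the 19 were called, beside 21.2% of all genes, and adjusted p was 0.159 for sec61g, 0.088 for spcs1, 0.151 for spcs3 and 0.0676 for srp14. Without mutant 1, 14 of the 19 were called, beside 16.1% of all genes, with 0.119 for sec63 and 0.058 for srp14.

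**Figure D2:**
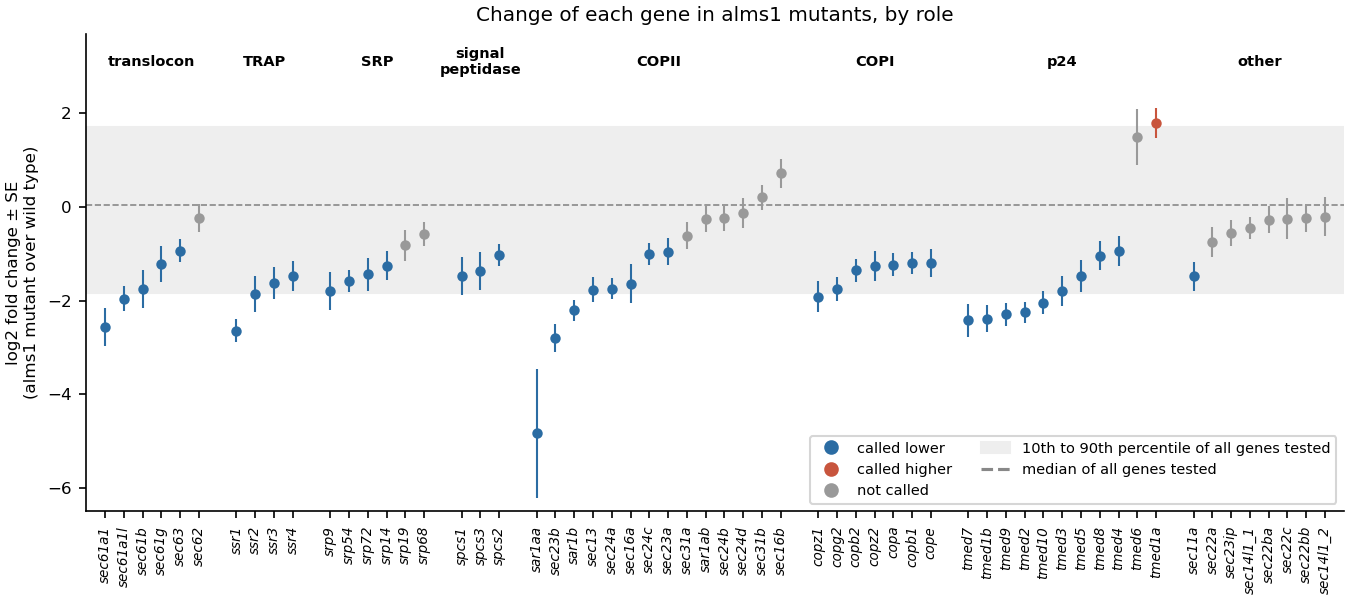
Log2 fold change (mutant over wild type) ± SE of each gene from edgeR, by role; blue points were called lower, the red point higher and grey points not called, with the 10th to 90th percentile of all genes tested in light grey. All 4 TRAP, all 3 signal peptidase and all 7 COPI genes were called lower, COPII genes were divided, and tmed1a was called higher.

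COPII genes were divided: 8 of 14 were lower, 0 higher and 6 not called, with a median of −0.98. sar1b, the GTPase that starts coat assembly and whose loss in humans blocks the export of lipoproteins from gut cells, had 197 and 227 in wild type against 44.9 and 46.7 in the mutants. It fell by 2.21 ± 0.23 (adjusted p = 0.000611). The inner coat gene sec23b, on chromosome 6 from 6618611 to 6638822, had 169 and 268 in wild type against 27.3 and 35.2 in the mutants, and fell by 2.80 ± 0.30 (adjusted p = 0.000656). sec24a, one of the cargo-binding Sec24 genes, had 114 and 124 in wild type against 34.7 and 36.1 in the mutants, a log2 fold change of −1.75 ± 0.22 (adjusted p = 0.000998). For each of these 3 genes both mutants lay far below the lower wild-type library. Lower too were sec13, an outer coat gene also used in the nuclear pore (log2 fold change −1.76 ± 0.27, adjusted p = 0.00191), sec16a, a scaffold of ER exit sites (−1.64 ± 0.41, adjusted p = 0.0138), sec24c (−1.002 ± 0.24, adjusted p = 0.0112) and sec23a (−0.96 ± 0.29, adjusted p = 0.0265). No read of sec16a was uniquely mapped. sec31a, sec31b, sec24b, sec24d, sar1ab and sec16b were not called. Their log2 fold changes ran from −0.61 ± 0.28 in sec31a (adjusted p = 0.109) to 0.72 ± 0.30 in sec16b (adjusted p = 0.0844). sec16b, the paralogue of sec16a, had 12.4 and 16.9 in wild type against 21.1 and 27.0 in the mutants, so that the mutants lay above wild type without passing the test. Per kb, sec16b stood at 1.73 and 2.83 times the long-gene level (described below) in wild type against 1.69 and 1.86 times in the mutants. Relative to that level it was thus not higher in the mutants. That level was itself higher in the mutants, at 8.03 and 5.23 reads per kb in wild type against 15.005 and 21.8. A gene of unchanged reads per kb therefore falls on this measure. On it sec31a, sec31b, sec24b and sec24d, also not called, were lower in both mutants than in either wild-type library. So was sar1ab, and the share over all genes was not counted. sec31a stood at 2.99 and 4.05 times that level in wild type against 1.06 and 1.14 times in the mutants. For sec24d the values were 3.37 and 7.30 against 2.32 and 2.28. The genes sec16b, sec31a, sec31b, sec24b and sec24d span 36165 to 48819 bases. Whether the division among COPII genes followed span was not tested. Without mutant 2, 5 of the 14 COPII genes were called lower, and adjusted p was 0.0676 for sec16a, 0.152 for sec23a and 0.0661 for sec24c. Without mutant 1, 5 were called as well, with 0.0839 for sec23a, 0.102 for sec24c and 0.11 for sar1aa. Without wild type 2, sec23a had 0.131.

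sar1aa was called lower on few reads. It passed the low-count filter only through its wild-type reads, so a call other than lower was hardly possible. The call thus carries little weight, though it is in the counts above. It had 62 and 10 reads in wild type against 0 and 3 in the mutants, none uniquely mapped, over 10694 bases of chromosome 12. Relative to all reads of each group it was 22.4-fold lower in the mutants, with an exact 95% interval of 7.37 to 111 that covers counting error only. Most of the wild-type reads came from wild type 1.

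All 7 COPI genes were lower, with a median of −1.25 and log2 fold changes from −1.92 to −1.19. copz1, for the ζ subunit, had 44.1 and 73.9 in wild type against 18.5 and 12.8 in the mutants, and fell by 1.92 ± 0.33 (adjusted p = 0.00304). copg2, for a γ subunit, had 65.3 and 60.6 in wild type against 16.3 and 21.3 in the mutants, and fell by 1.74 ± 0.25 (adjusted p = 0.00162). copb2 had 59.4 and 75.4 in wild type against 27.0 and 25.6 in the mutants, and fell by 1.36 ± 0.24 (adjusted p = 0.00347). In each both mutant libraries lay below both wild-type libraries on this scale. On the deposited TPM the groups overlapped for copg2 and copb2. copb1 had 90.2 and 70.9 in wild type against 36.6 and 33.3 in the mutants, a log2 fold change of −1.20 ± 0.24 (adjusted p = 0.00499). copa fell by 1.23 ± 0.25 (adjusted p = 0.0055). The genes copa, copb1 and copb2 are known in zebrafish from mutants whose notochord fails to form properly. cope fell by 1.19 ± 0.30 (adjusted p = 0.0128) and copz2 fell by 1.25 ± 0.32 (adjusted p = 0.014). Without mutant 2, 3 of the 7 COPI genes were still called (copg2, copb2 and copz1), and adjusted p was 0.0592 for copb1, 0.0653 for copa, 0.0927 for cope and 0.0551 for copz2. Without wild type 2 it was 0.0501 for cope and 0.0696 for copz2, and without mutant 1 it was 0.0765 for copz2.

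The p24 genes held the highest levels per length and the only gene called higher. tmed10, on chromosome 20 from 46632878 to 46638123, stood at 212 ± 67.2 TPM in wild type (SD, n = 2) and 98.4 ± 3.03 in the mutants. Its normalised CPM was 262 and 262 in wild type against 73.1 and 53.9 in the mutants, a log2 fold change of −2.04 ± 0.25 (adjusted p = 0.000926). tmed2, with which the tmed10 product forms complexes, had 208 and 225 in wild type against 47.4 and 43.7 in the mutants, and fell by 2.25 ± 0.23 (adjusted p = 0.0006). tmed9, also in that set of complexes, had 301 and 228 in wild type against 53.7 and 54.1 in the mutants, and fell by 2.29 ± 0.25 (adjusted p = 0.000663). In these 3 genes the gap between the groups exceeded any difference within a group. The p24 genes had 9 of 11 members lower, with a median of −1.80. tmed1b fell by 2.39 ± 0.29 (adjusted p = 0.00093), tmed7 fell by 2.42 ± 0.36 (adjusted p = 0.00166) and tmed3 fell by 1.80 ± 0.32 (adjusted p = 0.00339). Of the reads of tmed7, 7.76% were uniquely mapped. tmed5 fell by 1.48 ± 0.34 (adjusted p = 0.00992). The calls of tmed8 and tmed4, with log2 fold changes of −1.04 ± 0.31 (adjusted p = 0.0266) and −0.94 ± 0.32 (adjusted p = 0.0435), were lost without wild type 2 (0.0806 and 0.162), without mutant 1 (0.069 and 0.15) and without mutant 2 (0.153 and 0.159), and that of tmed5 without mutant 1 (0.0599), each an adjusted p. On uniquely mapped reads, 31.8% of its total, tmed8 had a log2 fold change of 0.36 (adjusted p = 0.543).

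tmed1a rose while its paralogue tmed1b fell. It had 249 and 213 reads in wild type against 940 and 1240 in the mutants, or a normalised CPM of 5.40 and 5.92 against 19.1 and 20.2. The rise was 1.79 ± 0.32 on the log2 scale (adjusted p = 0.00357), and the libraries within each group nearly coincided. It is annotated on chromosome 3, minus strand, from 50413838 to 50424966, and 99.0% of its reads were uniquely mapped. tmed6, a p24 gene of which little was read, had 43 and 37 reads in wild type against 151 and 151 in the mutants. Its normalised CPM was 0.93 and 1.03 against 3.06 and 2.45, with a log2 fold change of 1.49 ± 0.60 that was not called (adjusted p = 0.0736). With DESeq2 in place of edgeR tmed6 was called higher too. Per kb tmed6 stood at 2.21 and 2.92 times the long-gene level (described below) in wild type against 4.14 and 2.86 times in the mutants. On that measure the groups overlapped.

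Of the other 8 genes caught by the name rule 1 was lower (sec11a), and their median was −0.36. They hold genes of the sec22 family, which includes SNAREs that fuse vesicles at the ER and Golgi, lipid-binding sec14-like genes and sec23ip, whose product binds Sec23. sec22bb had 45.6 and 31.9 in wild type against 38.0 and 27.4 in the mutants, which overlap (log2 fold change −0.24 ± 0.29, adjusted p = 0.505). sec22a had 22.7 and 17.8 in wild type against 14.1 and 9.95 in the mutants (−0.75 ± 0.32, adjusted p = 0.0872). sec23ip had 23.0 and 19.99 in wild type against 13.5 and 15.7 in the mutants (−0.56 ± 0.28, adjusted p = 0.139). In sec22a and sec23ip the groups did not overlap, yet neither passed the test. Summed over the 8 genes, normalised CPM was 198 and 200 in wild type against 142 and 128 in the mutants.

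The balance of reads within 10 pairs of related genes is given as a description with no test, since the pairs were picked after their values were seen. tmed1a made up 4.09% and 6.37% of the reads of tmed1a and tmed1b in wild type against 53.1% and 45.6% in the mutants. The exact binomial 95% intervals were 3.60% to 4.61% and 5.57% to 7.25% in wild type, and 50.8% to 55.5% and 43.7% to 47.5% in the mutants. Among inner coat genes sec23a took 22.6% and 23.4% of the reads of sec23a and sec23b in wild type against 56.6% and 47.2% in the mutants. For sar1ab against sar1b the share was 9.32% and 9.33% in wild type against 30.7% and 26.4% in the mutants. For sec24b against sec24a it was 21.4% and 26.7% in wild type against 44.3% and 50.5% in the mutants. sec24d against sec24c went from 26.5% and 33.2% in wild type to 44.6% and 44.5%. The shares of the groups overlapped for sec61a1l against sec61a1 and for sec22ba against sec22bb. In several pairs the gene with the growing share has the longer span, as in sec23a with 54752 bases against 20212 in sec23b. In others it has the shorter span, as in sar1ab with 6095 bases against 11631 in sar1b. With the long-gene level subtracted (described below) sec23a took 19.3% and 21.8% in wild type against 47.3% and 30.2% in the mutants, and tmed1a 2.70% and 4.79% against 53.1% and 44.1%.

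**Figure D3:**
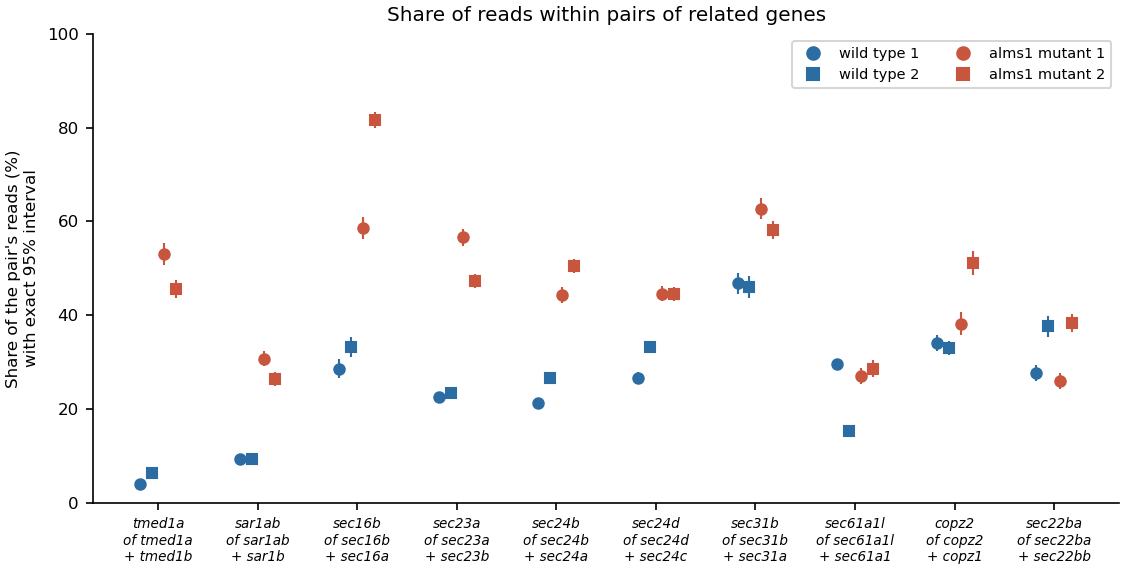
Share (%) of the summed reads of a pair of related genes taken by the first of them, in each library, with exact binomial 95% intervals (counting error only); blue is wild type, red is mutant. tmed1a went from 4.09% and 6.37% in wild type to 53.1% and 45.6% in the mutants, while for sec61a1l and sec22ba the groups overlapped.

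Reads of these genes were counted over the whole gene span, introns included. No read was recorded across an exon junction, but the exon length given equalled the gene length for all 59 genes. That lack of junction reads therefore tells nothing about splicing. The spans ran from 1344 to 54752 bases. Long genes read higher in the mutant libraries: the 10th percentile of reads per kb over 1509 protein-coding genes spanning 80 to 160 kb was 8.03 and 5.23 in wild type against 15.005 and 21.8 in the mutants. In wild type 1 gene of the 59 in each library (sar1aa) lay under 1.5 times this level, and in the mutants 6 and 8 did. Change went with span across all protein-coding genes, with a median log2 fold change of −0.61 under 5 kb, −0.55 from 5 to 10 kb, −0.32 from 10 to 20 kb and 0.10 from 20 to 60 kb. In the same classes the medians of the genes described here were −1.47 (7 genes), −1.75 (15), −1.20 (21) and −0.98 (16). Called lower in these classes were 6, 11, 15 and 9 of them, beside 30.4%, 33.7%, 31.3% and 23.6% of protein-coding genes. Among the 10471 protein-coding genes of a like read level (between the 10th and 90th percentile of the 59 genes), 38.0% were lower and 20.9% higher, and 34 of the 47 of the 59 genes at that level were lower.

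**Figure D4:**
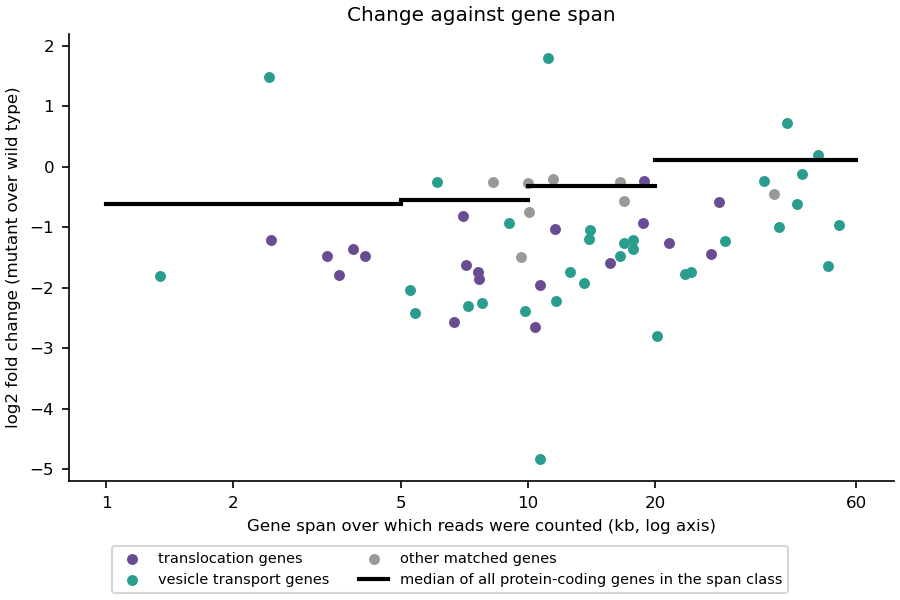
Log2 fold change of each gene (mutant over wild type) against the span over which its reads were counted (kb, log axis), with the median of all protein-coding genes of each span class as a black line. Purple points are translocation genes, green are vesicle transport genes and grey are other genes; the class medians of the genes shown were −1.47, −1.75, −1.20 and −0.98, beside −0.61, −0.55, −0.32 and 0.10.

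The scale mattered to the size of the fall and to the number of calls. On the deposited TPM, which divide by gene length and sum to the same total in each library, translocation genes summed to 639 and 726 in wild type against 456 and 452 in the mutants. Vesicle transport genes summed to 1223 and 798 TPM in wild type against 471 and 631 in the mutants. Neither pair of sums overlapped, but the COPI genes among them did, with sums of 129 and 89.7 TPM in wild type against 69.1 and 92.2 in the mutants. On TPM single genes overlapped between the groups for 5 of the 7 COPI genes, 12 of the 32 vesicle transport genes and 6 of the 19 translocation genes. On log2(TPM + 1) with limma-trend, where the median of all genes was 0.69, 9 of the 59 genes were called lower and 3 higher, beside 5.87% and 35.2% of all genes. The 9 were sec61a1, ssr1, sar1b, sec23b, tmed1b, tmed2, tmed7, tmed9 and tmed10, and the 3 were tmed1a, tmed6 and sec16b. The same 9 genes were called lower in every alternative in which they could be tested, and tmed1a was called higher in each in which it was tested. Scaled by library totals alone, where the median of all genes was 0.57, 24 were lower and 3 higher, beside 12.8% and 29.0% of all genes. With genes under 10 kb alone, 6 of 22 were lower and 1 (tmed6) higher, beside 11.2% and 12.6%. With the long-gene level subtracted, 17 of 58 were lower and 1 higher, beside 15.4% and 10.6%. Lower calls numbered 36 of 56 on uniquely mapped reads (25.2% of all genes), 42 with DESeq2 (26.5%), 40 with a replicate block (21.9%) and 37 with the trend of gene span removed (22.7%). With 1 library left out they numbered 40 of 58 without wild type 1 (22.8% of all genes), 32 without wild type 2 (21.2%), 32 without mutant 1 (16.1%) and 21 without mutant 2 (14.0%).

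Genes that work with these proteins were read from 8 lists, of which 118 genes were tested. Of these 69 were lower and 17 higher, beside 24.3% and 19.2% of all genes tested. The balance turned on other scales, for these genes as for all genes tested. On TPM 19 were lower and 21 higher, beside 5.87% and 35.2% of all genes. Of 50 tested under 10 kb 9 were lower and 10 higher, beside 11.2% and 12.6%. Oligosaccharyltransferase, which attaches sugar chains beside the channel, had 7 of 11 genes lower and 1 higher (tusc3), with a median of −1.47, and rpn1, magt1 and ddost had log2 fold changes of −2.38 (adjusted p = 0.000519), −1.98 (adjusted p = 0.00135) and −1.66 (adjusted p = 0.00187). The SRP receptor and TRAM list had 3 of 4 lower, srprb, tram2 and srpr, with a median of −1.27. The list of EMC and tail-anchor insertion genes had 10 of 14 lower and 0 higher, with emc3 falling by 1.95 (adjusted p = 0.00131). Among COPI partners 11 of 15 were lower and 1 higher, with a median of −1.89, led by the GTPase genes arf5 (a log2 fold change of −2.38, adjusted p = 0.000579), arf2b (−2.26, adjusted p = 0.000663) and arf1 (−2.24, adjusted p = 0.000663). Their exchange factor gene gbf1 rose by 1.04 (adjusted p = 0.00744). COPII partners had 6 of 13 lower, with tfg falling by 2.14 (adjusted p = 0.00075), and 2 higher, mia2 and tecpr2. ER-Golgi tethers and SNAREs had 14 of 26 lower and 0 higher, with rab1ba falling by 2.54 (adjusted p = 0.000549) and gorasp2, which fell by 2.16 (adjusted p = 0.000699). With edgeR on counts more genes were lower than higher in each of these 6 lists, and the single lists were not recounted on TPM.

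Transcription factors and sensors that set the amount of secretory machinery were divided. xbp1, whose spliced product drives ER expansion, had 604 and 757 in wild type against 173 and 149 in the mutants and fell by 2.08 (adjusted p = 0.000993). creb3l2, known to act on COPII genes in zebrafish cartilage, and creb3l1, a factor of bone-forming cells, had log2 fold changes of −1.75 (adjusted p = 0.00118) and −1.64 (adjusted p = 0.00169). The liver and gut factor gene creb3l3b rose by 2.08 (adjusted p = 0.00671), the stress sensor gene ern1 by 1.22 (adjusted p = 0.0404) and atf6 by 0.84 (adjusted p = 0.0362). Counts of this list, which also holds the ER chaperone genes hspa5 and hsp90b1, were 5 of 9 lower and 3 higher. Over all genes tested 24.3% were lower and 19.2% higher. The list is short, and it was not recounted alone on other scales or with libraries left out.

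Secretory cargo genes went both ways, with 13 of 26 lower and 10 higher. Collagen and matrix genes were among the lower: col2a1a had 605 and 893 in wild type against 43.5 and 57.3 in the mutants, a log2 fold change of −3.89 (adjusted p = 0.000479), col1a2 fell by 3.48 (adjusted p = 0.000493) and matn1 fell by 2.71 (adjusted p = 0.000497). The 10 higher were the pancreatic enzyme genes prss59.1, prss59.2, cpa1, cpa5, ela2, ela2l and ctrb1 and the plasma protein genes apoa1b, apoa2 and tfa. Marker lists of cell types were counted as well. The acinar, connective tissue and cartilage lists share genes with the cargo list, such as the enzyme genes above and col2a1a. Their counts are therefore not separate from those of the cargo genes. All 11 skin markers were lower, with a median of −2.83, as were all 7 connective tissue markers, with a median of −2.99, 4 of 7 cartilage and notochord markers and 6 of 7 leukocyte markers. Connective tissue markers took 1.03% and 1.15% of reads in wild type against 0.184% and 0.165% in the mutants. Acinar markers, 9 of 11 higher and 0 lower, took 0.0771% and 0.0952% in wild type against 0.456% and 0.321% in the mutants, and 9 of 12 muscle, 2 of 6 erythroid and 4 of 13 β-cell markers were higher. Over all genes tested 24.3% were called lower and 19.2% higher. The erythroid and β-cell lists are too short to set their counts apart from that share. No marker was at 0 in any library. The part of these cell type markers, and of the long-gene level, in the fall of the translocation and coat genes was not tested.

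**Figure D5:**
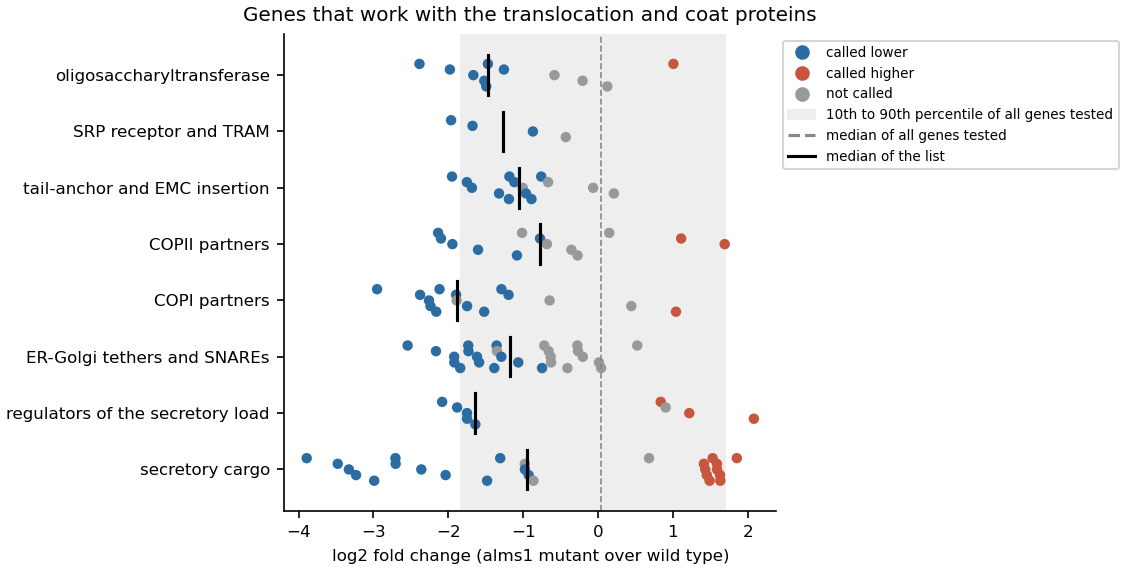
Log2 fold change (mutant over wild type) of each tested gene of 8 lists of partners, regulators and cargo; blue was called lower, red higher and grey not called, black bars are list medians, and the grey band spans the 10th to 90th percentile of all genes tested. COPI partners had the lowest median, −1.89, and secretory cargo the widest range.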

How the data were processed

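The authors aligned paired reads to GRCz10 (GRZ10 in the methods) in CLC Genomics Server v10.0.1. The annotation used and any read filter were not given in the sources used here. Nextera XT does not mark strand. The deposited counts were made by the same program and are whole numbers, not normalized. The deposited TPM and RPKM were computed by the authors' program, and RPKM were not used in any test. Chromosome numbers were taken from shared gene symbols in a table of GRCz12tu (98.2% to 99.5% matching), with no coordinate from it.

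Counts were tested with edgeR 4.0.16 in R 4.3.3 (TMM, filterByExpr, quasi-likelihood F test, all 4 libraries, no block), with Benjamini-Hochberg adjustment at 0.05 over 28079 genes. The biological coefficient of variation was 0.340. A log2 fold change over the root of its F statistic gave the SE. With 2 libraries a group exact permutation of a gene reaches a two-sided p of 0.333 at best and was not run. The test was also run on simulated counts, with far fewer changed genes than were called here, so that run does not check it under these conditions. TMM factors were 0.915 and 0.753 in wild type against 1.15 and 1.26 in the mutants.

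Alternatives used DESeq2 1.42.0, limma 3.58.1, uniquely mapped reads, other scaling and filters, a replicate block, each library left out, subtraction of the long-gene level, genes under 10 kb alone and, added after seeing the data, removal of the trend with gene span. Python 3.11.15 with matplotlib 3.10.9, scipy 1.17.1, numpy 2.4.6 and pandas 2.3.3 drew the plots and wrote the tables.

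The genes and lists were chosen with earlier results of these data known. Values in each library are given per role for the gene with the highest mean TPM and the 3 with the smallest adjusted p, for genes called higher and for paralogues whose directions differ. Of a list, up to 3 genes of smallest adjusted p are given. Named beyond this rule, after their values were seen, were sar1aa, tmed6, sec62, sec31a and sec24d with their values, and the list genes called higher.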

Additional observations from a re-analysis of the deposited data

How the results depend on the processing

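Of the 42 calls among the 59 genes, 42 remained with DESeq2 and 37 with the trend of gene span removed (of 39 made). With DESeq2 49% of all genes tested were called either way, and with that trend removed 38% were. The number of calls was 27 with library totals alone, 12 with limma-trend on log2(TPM + 1), 18 with the long-gene level subtracted and 7 with genes under 10 kb alone, where 37 genes drop out. In these settings 41.8%, 41%, 26% and 23.8% of all genes tested were called either way. Translocation calls, 16 of 19, were 9, 2, 4 and 1 in these settings. Vesicle transport calls, 25 of 32, were 10 on TPM (tmed1a, tmed6 and sec16b among them higher), 14 with subtraction and 6 under 10 kb. The single call among other genes was lost in these 3 settings (0). Median log2 fold changes moved to −0.90 with library totals, −0.40 on TPM and −0.78 under 10 kb for translocation genes, and to −0.77 and −0.27 with library totals and on TPM for vesicle transport genes. Genes of the partner lists gave 40 calls on TPM (21 higher, 19 lower), beside 35.2% and 5.87% of all genes. They gave 19 under 10 kb (10 higher, 9 lower), beside 12.6% and 11.2%, and 51 with subtraction. On TPM and under 10 kb more partner genes were thus higher than lower, as among all genes tested. On TPM the log2 fold changes of sec23a, sec63, tmed4 and sec24c were 0.064, 0.057, 0.060 and 0.0035, and tmed8 was 0.36 on uniquely mapped reads. With each library left out in turn, calls among the 59 genes ranged from 22 to 41. They ranged from 6 to 16 for translocation, 16 to 24 for vesicle transport and 0 to 1 for other genes. For the partner lists they ranged from 53 to 85, and each of these counts was lowest without mutant 2. The share of all genes tested called either way was lowest there too, at 22.1%, and highest without wild type 1, at 46.3%. The translocation median then ranged from −1.70 to −1.03 and the vesicle transport median from −1.41 to −1.24. A lone library left in a group is assumed to vary like the other group. The cause of these changes was not tested.

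Same-numbered samples were not treated as pairs, since no source ties them together: across 28079 genes the deviations of the replicates correlated at −0.075, and across the 59 genes at −0.53. With the replicate number as a block, 41 of the 59 genes were called, 1 higher and 40 lower, and the call of tmed4 was lost. Of all genes tested 17.2% were then called higher and 21.9% lower. Read depth did not limit most calls, but sar1aa and tmed6 rest on few reads.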

Other observations

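Neighbouring genes of the set were looked at after their values were seen. In 4 places members lay within 50 kb of each other in the coordinates of the files. sec24a and sar1b, which work in the same COPII coat, lie head to head on chromosome 21 with 543 bases between them, and had log2 fold changes of −1.75 and −2.21. srp54 and sec23a lie on the same strand of chromosome 17 with 654 bases between them, and had −1.59 and −0.96. copa and sec62 on chromosome 2, with 39312 bases between them, had −1.23 and −0.24, and sec24b and srp72 on chromosome 14, with 47401 bases between them, had −0.24 and −1.44. Differences between neighbours were not tested.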
